A study of Mus musculus with 16 samples.

Results

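Base excision repair continues after a glycosylase has removed a damaged base, and 9 genes of these later steps were followed here: Apex1, Apex2, Polb, Fen1, Xrcc1, Lig3, Parp1, Parp2 and Aptx. They were chosen by name, and all 9 were among the 17436 genes tested. All 14 probes that map to them through their RefSeq entries were well above background on 16 of 16 arrays and none was saturated. The samples were cerebral cortex of male mice, 28 to 42 weeks old according to the labels, taken 20 h after whole-body gamma irradiation with 6 Gy (0.74 Gy/min) or sham exposure. The 4 groups of 4 mice were Neil1-/- mice backcrossed to C57BL/6 and wild-type littermates, each as sham and as irradiated animals, and each mouse had 1 array. The protocol gives BrdU, a thymidine analogue (100 mg/kg), both before exposure and 2 h after it, so BrdU was common to all groups where the protocol was followed for sham animals too. NEIL1, the glycosylase targeted in the knockout, opens the pathway at oxidised bases. Since whole cortex was extracted, fewer cells of a type and less RNA per cell cannot be told apart in any value below.

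An abasic site left by a glycosylase is cut by the endonuclease APE1, the product of Apex1, and DNA polymerase beta trims the end and fills the gap. XRCC1 is a scaffold without enzymatic activity that holds DNA ligase 3, which seals the nick. PARP1 and PARP2 bind single-strand breaks and mark them with poly(ADP-ribose), aprataxin (Aptx) releases AMP left on a break by abortive ligation, and the flap endonuclease FEN1 removes the displaced strand when repair runs over several nucleotides. Neurons do not divide and rely on this pathway for oxidised bases and single-strand breaks; inherited loss of aprataxin or of XRCC1 causes ataxia in humans.

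The promoters of 7 of the 9 genes were matched in RefSeq (GRCm38.p6; 250 bases before to 50 after the annotated start), and 3 are shown, those of Xrcc1, the gene called between genotypes, and of Apex1 and Parp1, which varied together across arrays. Capitals mark the GC box GGGCGG and the CCAAT box CCAAT, searched on both strands; the motifs did not overlap each other.
Xrcc1, chr7:24546449-24546748, plus strand: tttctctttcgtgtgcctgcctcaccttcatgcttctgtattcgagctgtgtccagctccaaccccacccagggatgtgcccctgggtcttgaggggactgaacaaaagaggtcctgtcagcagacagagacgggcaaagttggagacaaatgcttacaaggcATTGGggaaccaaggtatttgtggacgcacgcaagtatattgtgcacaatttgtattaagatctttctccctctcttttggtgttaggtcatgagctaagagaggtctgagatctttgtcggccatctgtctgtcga
Apex1, chr14:50924699-50924998, plus strand: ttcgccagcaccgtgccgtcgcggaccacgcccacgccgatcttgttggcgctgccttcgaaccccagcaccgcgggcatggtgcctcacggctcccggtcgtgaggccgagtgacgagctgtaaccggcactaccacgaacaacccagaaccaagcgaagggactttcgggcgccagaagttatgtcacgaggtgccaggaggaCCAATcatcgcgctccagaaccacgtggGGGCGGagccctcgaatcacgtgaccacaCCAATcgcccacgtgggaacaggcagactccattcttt
Parp1, chr1:180568641-180568940, plus strand: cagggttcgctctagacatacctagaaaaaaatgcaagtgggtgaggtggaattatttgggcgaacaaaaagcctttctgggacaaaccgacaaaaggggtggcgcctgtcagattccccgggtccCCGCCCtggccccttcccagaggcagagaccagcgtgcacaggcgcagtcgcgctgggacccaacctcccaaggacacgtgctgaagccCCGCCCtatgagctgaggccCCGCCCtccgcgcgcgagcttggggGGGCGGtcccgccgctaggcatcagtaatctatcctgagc
The Parp1 window held 4 GC boxes and 0 CCAAT boxes, the Apex1 window 1 GC box and 2 CCAAT boxes, and the Xrcc1 window 1 CCAAT box and 0 GC boxes. Of all 32851 RefSeq promoter windows of this length, 35.7% held a GC box and 37.4% a CCAAT box. The windows were 62.0%, 63.3% and 49.3% G and C in the same order, against a median of 52.7% over all windows. A p53 half-site by its consensus was found in 1 of the 9 windows of these genes, a Fen1 window, and in 8.36% of all windows. These matches describe letters in a window and say nothing of binding.

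Levels are log2 processed signals relative to the 75th percentile of the same array, and differences are log2 changes ± SE from 1 limma model over all genes, with 95% intervals. A gene was called at a Benjamini-Hochberg adjusted p under 0.05 over all 17436 genes. Array brightness differed between groups: the mean 75th percentile of intensity reached 2415.1 (SD 273.6, n = 4) in sham-exposed wild-type mice, 2300.6 ± 235 in irradiated wild-type mice, 1777.8 ± 342.9 in sham-exposed labelled knockouts and 1333 ± 300.9 in irradiated labelled knockouts. All wild-type arrays lay on 1 slide and all labelled knockout arrays on the other, so slide and genotype cannot be told apart. On both slides the sham arrays lay in 1 row and the irradiated arrays in the other, so slide row and treatment cannot be told apart either. Markers of excitatory neurons and of GABA interneurons (7 of 7 and 6 of 6 listed genes) were well above background on all arrays, as the cortex label has it. The Neil1 probe was brighter in arrays labelled knockout, by 1.27 ± 0.19 in sham (adjusted p = 0.0246) and by 1.39 ± 0.19 after irradiation (adjusted p = 0.00725), and since the deleted part of the gene is not given it does not check the labels. The exposure was visible in p53 targets, of which 18 of 20 had a change above 0 in each genotype. Limma called 6 of 20 higher in wild type and 6 of 20 in labelled knockout, against 0.0631% and 0.0746% of all genes. Averaged over genotypes, Cdkn1a stood at 1.32 ± 0.13 and Ephx1 at 1.30 ± 0.09 (adjusted p = 0.000166 and 2.49e-06). The other targets called were Gdf15, Trp53inp1, Tnfrsf10b and Eda2r in both genotypes, and Aen on average. Eda2r was well above background on only 8 of 16 arrays, so its values rest in part on signals near background.

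At 20 h after 6 Gy none of the 9 repair genes was called in either genotype. Limma called 0 of 9 in wild type, where 0.0746% of all tested genes were called, and 0 of 9 in labelled knockout, against 0.12% of all. Averaged over genotypes it called 0 of 9, against 0.304%. At an unadjusted p under 0.05 the counts were also 0 of 9 in each of these 3 comparisons, where 1.97%, 4.63% and 5% of all genes had such a p. Changes ran from -0.04 (Parp2) to 0.15 (Fen1) in wild type and from -0.18 (Xrcc1) to 0.21 (Fen1) in labelled knockout. The median of the 9 genes was 0.05 in wild type and -0.04 in labelled knockout, beside 0.01 and -0.001 over all tested genes. The interaction of irradiation with genotype called 0 of 9 repair genes and 0 of 17436 genes (1.27% of all genes and 0 of the 9 had an unadjusted p under 0.05).

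**Figure D1:**
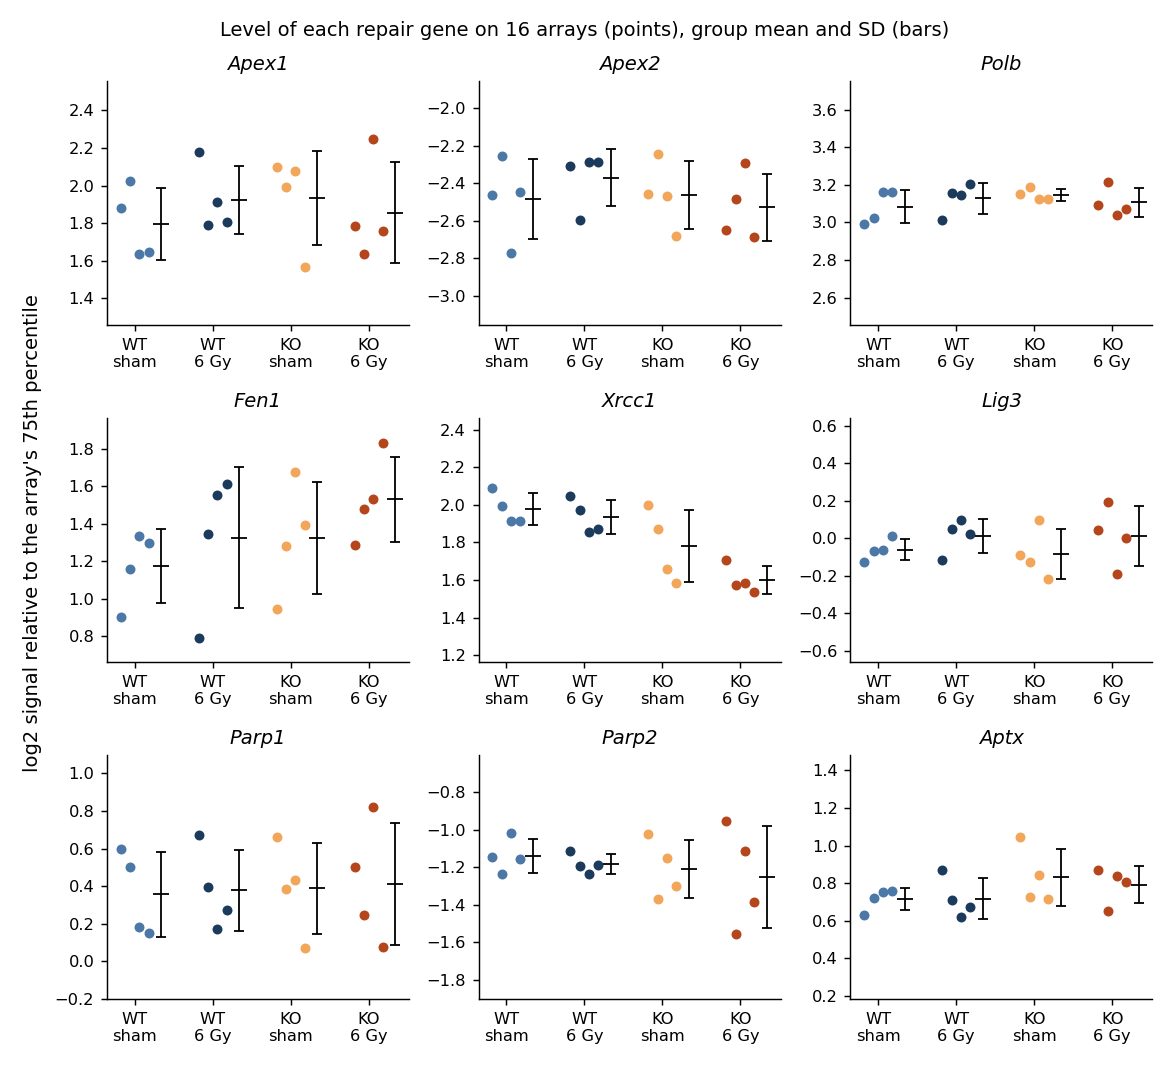
Level of each of the 9 repair genes (brightest probe, log2 signal over the 75th percentile) in 4 groups of 4 mice. Points are arrays in the order of replicates 1 to 4, bars are the group mean and SD, and every panel spans the same height. Polb is the tightest and Fen1 and Parp1 the widest. By these brightest probes, Xrcc1 is the gene whose irradiated labelled knockout arrays lie below all irradiated wild-type arrays.

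Of the AP endonucleases, Apex1 gave 1.88, 2.02, 1.64 and 1.64 in sham-exposed wild-type mice and 2.18, 1.79, 1.91 and 1.81 in irradiated wild-type mice. Sham-exposed labelled knockouts gave 2.10, 1.99, 2.08 and 1.57, and irradiated ones 1.79, 1.64, 2.25 and 1.76. The groups overlapped throughout, and the highest array of all came from an irradiated labelled knockout. Irradiation changed Apex1 by 0.13 ± 0.16 in wild type (interval -0.21 to 0.46) and by -0.08 ± 0.16 in labelled knockout (-0.42 to 0.26). The interval in wild type leaves room for a fold of up to 1.38. A second bright Apex1 probe gave 0.18 ± 0.20 and -0.10 ± 0.20 for the same changes. Genotype changes of Apex1 were 0.14 ± 0.16 in sham and -0.07 ± 0.16 after irradiation.

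Apex2, the mitochondrial and nuclear relative with weaker endonuclease activity, gave -2.46, -2.26, -2.77 and -2.45 in sham-exposed wild-type mice and -2.31, -2.59, -2.29 and -2.29 in irradiated wild-type mice. In labelled knockout it gave -2.46, -2.24, -2.47 and -2.68 in sham and -2.65, -2.48, -2.29 and -2.69 after irradiation. Again no group stood apart. The irradiation changes were 0.11 ± 0.13 in wild type (-0.17 to 0.40) and -0.07 ± 0.13 in labelled knockout (-0.35 to 0.22), and the genotype changes 0.02 ± 0.13 in sham and -0.16 ± 0.13 after irradiation.

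Polb, the gap-filling polymerase, was the steadiest of the 9. It gave 2.99, 3.02, 3.16 and 3.16 in sham-exposed wild-type mice, 3.01, 3.16, 3.15 and 3.20 in irradiated wild-type mice, 3.15, 3.19, 3.12 and 3.12 in sham-exposed labelled knockouts, and ran from 3.04 to 3.21 in irradiated labelled knockouts. Its pooled SD within groups was 0.07, and 0.4% of all tested genes had a smaller one (median gene 0.25). The precision is therefore highest for this gene: irradiation changed it by 0.05 ± 0.08 in wild type (-0.12 to 0.21) and by -0.04 ± 0.08 in labelled knockout (-0.21 to 0.13), so that a fold beyond 1.16 in either direction lies outside both intervals. Genotype changes were 0.06 ± 0.08 in sham and -0.02 ± 0.08 after irradiation. With a range of group means of 0.06, the order of the 4 groups lay within the spread of the arrays.

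Fen1, the flap endonuclease shared with DNA replication, had the widest spread (pooled SD 0.28). Values were 0.91, 1.16, 1.34 and 1.30 in sham-exposed wild-type mice and 0.79, 1.35, 1.56 and 1.61 in irradiated wild-type mice. Labelled knockout gave 0.95, 1.28, 1.67 and 1.39 in sham and 1.29, 1.48, 1.53 and 1.83 after irradiation. The lowest array of 3 of the 4 groups was below 1 while others of the same group were above 1.3, so the groups overlapped widely. Irradiation changed Fen1 by 0.15 ± 0.19 in wild type (-0.26 to 0.57) and by 0.21 ± 0.19 in labelled knockout (-0.21 to 0.62), which leaves room for a fold of up to 1.54. Averaged over genotypes the change was 0.18 ± 0.14 (-0.11 to 0.47, adjusted p = 1). Genotype changes of Fen1 were 0.15 ± 0.19 in sham and 0.20 ± 0.19 after irradiation.

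Markers of cycling cells, which use FEN1 at the lagging strand, were set beside Fen1. Of the 15 listed, 14 passed the filter and 7 were well above background on all arrays. Among those 7, Prc1, which bundles microtubules in dividing cells, fell by 0.66 ± 0.12 after irradiation when averaged over genotypes (adjusted p = 0.0234). Pbk, Cenpf, Ccnb1, Nusap1 and Ube2c were also called lower, but each was well above background on only 7 to 11 arrays, so their values rest in part on signals near background. The mean level of the 14 lay between -3.95 and -3.35 in sham-exposed wild-type mice and between -4.67 and -4.61 in irradiated wild-type mice. In labelled knockout it lay between -3.94 and -3.42 in sham and between -4.85 and -4.32 after irradiation. Within each genotype the sham and irradiated arrays did not overlap in this mean, which includes the genes near background on part of the arrays. Some of these passed the filter on only 7 to 11 arrays and were lower after irradiation, so the separation is no test. Of all single genes tested, 1.1% in wild type and 1.03% in labelled knockout had every irradiated array below every sham array. That share is of single genes, and none was computed for the mean of a list. The part of cycling cells in the Fen1 values was not tested.

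Xrcc1, the scaffold, was the only member called in any of the 7 comparisons, at a lower level in labelled knockout when averaged over treatments. It gave 2.09, 1.99, 1.91 and 1.91 in sham-exposed wild-type mice and 2.05, 1.97, 1.85 and 1.87 in irradiated wild-type mice. In labelled knockout it gave 2.00, 1.87, 1.66 and 1.58 in sham and 1.71, 1.57, 1.58 and 1.53 after irradiation. The sham groups overlapped, and all irradiated labelled knockout arrays lay below all irradiated wild-type arrays, a pattern in this direction that 4.44% of all tested genes had. The change averaged over treatments was -0.27 ± 0.07 (interval -0.42 to -0.12, 0.83-fold, adjusted p = 0.0405). Limma called 1 of 9 members in this comparison, against 5.4% of all genes (2.23% lower), and 1 of 9 had an unadjusted p under 0.05, against 21.7% of all.

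For each treatment alone, limma called 0 of 9 members between genotypes, against 0.0516% of all genes in sham and 1.18% after irradiation, with 0 and 1 members at an unadjusted p under 0.05, beside 7.69% and 16.6% of all genes. The Xrcc1 change was -0.20 ± 0.10 in sham (adjusted p = 0.673) and -0.34 ± 0.10 after irradiation (adjusted p = 0.106). The latter was called with the replicate number, which is also the slide column, as a block (adjusted p = 0.0436) and with normexp background correction (adjusted p = 0.0387). The interaction for Xrcc1 was -0.14 ± 0.14 (adjusted p = 1), with an interval from -0.44 to 0.16. Counts of gene levels by slide column were made for the 9 members alone, so no share of all genes stands beside them. Columns were not taken to pair the mice. Within the same position on the slide the labelled knockout array gave the lower Xrcc1 value in 8 of 8 comparisons, and it was also the dimmer array in 8 of 8. Within the same slide and column, but in the other row, the irradiated array was the higher one for Xrcc1 in 0 of 8 comparisons with sham. The irradiated array was the dimmer one in 7 of 8. Among the other members, the labelled knockout array was the lower one in 1 (Fen1) to 5 (Apex1, Parp1 and Parp2) of 8. The irradiated array was the higher one in 2 (Aptx) to 7 (Lig3) of 8. Irradiation changed Xrcc1 by -0.04 ± 0.10 in wild type (-0.25 to 0.17) and by -0.18 ± 0.10 in labelled knockout (-0.39 to 0.03).

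The level of Xrcc1 was also set against the brightness of the array. Within groups its slope was 0.43 ± 0.13 per doubling of the 75th percentile of intensity (unadjusted p = 0.00558, adjusted p = 0.123 by limma), a test in which 0 of 17436 genes were called and 20.9% had an unadjusted p under 0.05. With brightness as a covariate, which was added once the values had been seen, the genotype change of Xrcc1 was 0.001 ± 0.10 (adjusted p = 0.997), and 7 of all genes (0.0401%) were called in place of 942. Labelled knockout arrays were the dimmer ones, so the covariate made genotype changes less precise. The SE rose from 0.07 to 0.10 for Xrcc1 and from 0.11 to 0.21 for Apex1. For Neil1 the change was 1.33 without the covariate and 1.61 with it (limma adjusted p = 0.000214 and 0.0498). A call lost in that fit is therefore not by itself a smaller change. The Xrcc1 call was also lost with quantile normalization (-0.25, adjusted p = 0.068), with scaling to the array median (-0.39, adjusted p = 0.13) and in the deposited scores (adjusted p = 0.0837). It was lost without the 2 dimmest arrays (-0.25, adjusted p = 0.122), and when any 1 of 12 of the 16 arrays was left out. The change ranged from -0.31 to -0.24 when single arrays were left out. Under the median scaling all genes with a value on every array moved by the same -0.12 in this comparison, since each scaling subtracts 1 value per array. The change of -0.39 is therefore the first value with that shift, and is no separate check of it.

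**Figure D2:**
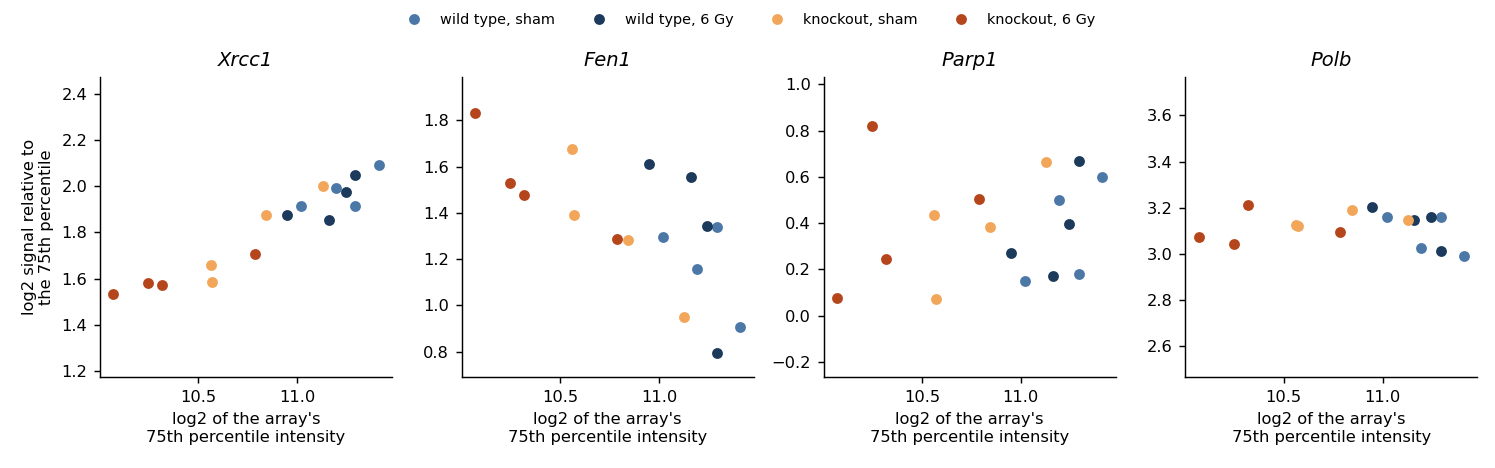
Levels of Xrcc1, Fen1, Parp1 and Polb (vertical axes of equal height) against the log2 of each array's 75th percentile intensity, 1 point per array, coloured by group. Relative to that percentile, Xrcc1 is higher and Fen1 lower on brighter arrays, and Polb is flat. The labelled knockout arrays take up the dim end of the axis.

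Fen1 had a slope of the opposite sign, -0.94 ± 0.24 per doubling (unadjusted p = 0.00158, adjusted p = 0.107 by limma). Levels are relative to the same 75th percentile, so a signal that did not follow array brightness would have a negative slope by construction. The Fen1 slope thus does not show that its unscaled signal fell on brighter arrays. The mean level of Fen1 was 0.98 in slide column 1, where the arrays were brightest (mean 75th percentile 2310.4), and 1.53 in column 4, where they were dimmest (1662.6). Parp1 had a slope of 0.59 ± 0.28 (unadjusted p = 0.0512) and Parp2 of 0.39 ± 0.19 (unadjusted p = 0.0655). Polb had -0.05 ± 0.13 and Lig3 -0.04 ± 0.17. The irradiated labelled knockout arrays were dimmer than their sham controls, and with the covariate the irradiation change of Fen1 in that genotype was -0.19 ± 0.17, opposite in sign to the value without it, neither being called. Between genotypes, averaged over treatments, Fen1 stood at 0.18 ± 0.14 without the covariate and at -0.41 ± 0.18 with it (adjusted p = 0.492 and 0.186).

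Lig3, the ligase bound by XRCC1, gave -0.12, -0.07, -0.06 and 0.01 in sham-exposed wild-type mice and -0.12, 0.05, 0.10 and 0.02 in irradiated wild-type mice. It gave -0.09, -0.13, 0.10 and -0.22 in sham-exposed labelled knockouts and 0.04, 0.19, -0.19 and 0.00 in irradiated labelled knockouts. The groups overlapped. The genotype change averaged over treatments was -0.01 ± 0.07 (-0.16 to 0.14), so a fold beyond 1.12 in either direction lay outside the interval. Irradiation changed it by 0.07 ± 0.10 in wild type and by 0.10 ± 0.10 in labelled knockout. For the genotype change averaged over treatments, the interval of its scaffold Xrcc1 (-0.42 to -0.12) overlapped that of Lig3, and the difference between these genes was not tested. The Lig3 values given here are of the brighter probe, and the dimmer one gave 0.39 ± 0.11 for that genotype change.

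Parp1, the main sensor of single-strand breaks, gave 0.60, 0.50, 0.18 and 0.15 in sham-exposed wild-type mice and 0.67, 0.40, 0.17 and 0.27 in irradiated wild-type mice. Labelled knockout arrays gave 0.66, 0.38, 0.43 and 0.07 in sham and 0.50, 0.24, 0.82 and 0.08 after irradiation. The 4 group means lay within 0.05 of each other while arrays of 1 group differed by up to several times that. The changes with irradiation were 0.02 ± 0.18 in wild type (-0.36 to 0.40) and 0.02 ± 0.18 in labelled knockout (-0.36 to 0.40), and the genotype change averaged over treatments was 0.03 ± 0.12.

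Parp2, the second sensor, gave -1.14, -1.24, -1.02 and -1.16 in sham-exposed wild-type mice and -1.11, -1.19, -1.24 and -1.19 in irradiated wild-type mice. It gave -1.02, -1.37, -1.15 and -1.30 in sham-exposed labelled knockouts and -0.95, -1.55, -1.11 and -1.39 in irradiated labelled knockouts. The labelled knockout arrays spread more widely, on both sides of the wild-type ones. Irradiation changed it by -0.04 ± 0.12 in wild type and by -0.04 ± 0.12 in labelled knockout, and genotype by -0.07 ± 0.09 averaged over treatments.

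Aptx, the end-cleaning enzyme, gave 0.63, 0.72, 0.75 and 0.76 in sham-exposed wild-type mice and 0.87, 0.71, 0.62 and 0.67 in irradiated wild-type mice. In labelled knockout it gave 1.04, 0.73, 0.84 and 0.71 in sham and 0.87, 0.65, 0.84 and 0.81 after irradiation. A single array of a sham-exposed labelled knockout exceeded 1. The irradiation changes were 0.002 ± 0.09 in wild type (-0.20 to 0.20) and -0.04 ± 0.09 in labelled knockout (-0.24 to 0.16), and the genotype change averaged over treatments was 0.09 ± 0.07 (-0.05 to 0.24, adjusted p = 0.447).

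**Figure D3:**
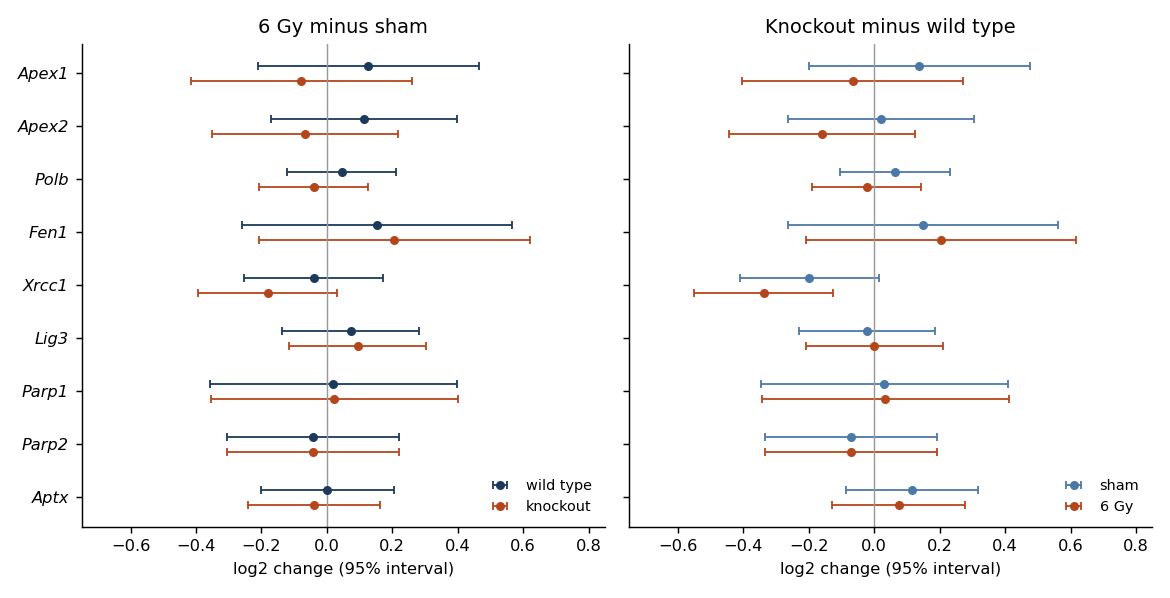
Log2 changes of the 9 genes with 95% intervals from limma: 6 Gy minus sham in wild type and labelled knockout (left), and labelled knockout minus wild type in sham and irradiated mice (right). The interval of Xrcc1 after irradiation, -0.55 to -0.13, is the one that does not reach 0, and its adjusted p over all genes is 0.106.

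Apex1, Apex2, Lig3 and Parp2 have more than 1 probe, and the probes did not give the same genotype change. The dimmer Lig3 probe was called higher in labelled knockout averaged over treatments (0.39 ± 0.11, adjusted p = 0.0321 in the fit of all 39588 kept probes, which called 10% of them), against -0.01 for the brighter one. Its levels were -3.32, -3.41, -3.58 and -3.51 in sham-exposed wild-type mice, -3.02, -3.52, -3.47 and -3.34 in irradiated wild-type mice, -2.91, -3.34, -2.87 and -3.21 in sham-exposed labelled knockouts and -2.76, -3.00, -2.71 and -3.21 in irradiated labelled knockouts. The genotypes overlapped in both treatments. The dimmer Parp2 probe changed by 0.19 ± 0.07 (adjusted p = 0.0991), against -0.07 for the brighter one. On the dimmer probe all irradiated labelled knockout arrays (-1.66 to -1.34) lay above all irradiated wild-type arrays (-1.86 to -1.74). By brightest probe, 4.3% of all tested genes had such a pattern in this direction. The dimmest Apex1 probe changed by 0.25 ± 0.16 and the dimmer Apex2 probe by 0.33 ± 0.20, against 0.04 and -0.07. All 4 of these lesser probes of their genes lay higher in labelled knockout. They were not all dim: the 2 Parp2 probes had a mean log2 intensity of 9.18 and 9.69. The brighter Apex2 probe, at 8.42, was dimmer than both. Over all named probes kept, the median of this change was 0.15 for the 5892 probes with a mean log2 intensity under 7 and 0.12 between 7 and 8. It was 0.06 between 8 and 9, 0.005 between 9 and 10, and -0.05 between 12 and 13. The part of probe brightness in these differences was not tested.

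**Figure D4:**
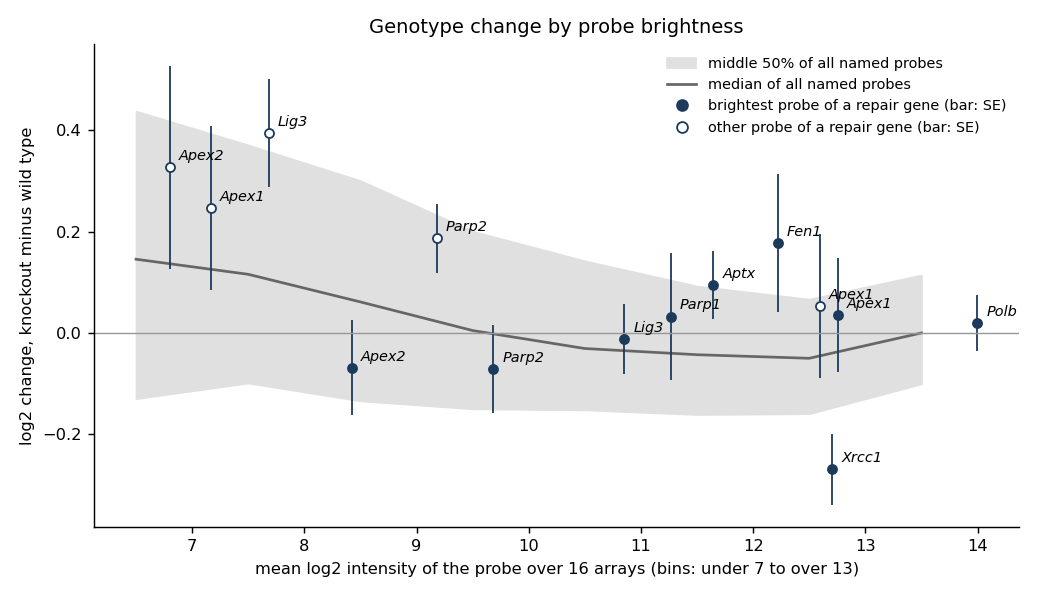
Log2 change between genotypes (labelled knockout minus wild type, averaged over treatments) of the 14 probes against their mean log2 intensity, with SE bars. The line and grey band give the median and the middle 50% of all named probes kept, in bins of 1 log2 unit. Dim probes lie higher in general, and Xrcc1, at -0.27, lies below the band.

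Of the other proteins that work at the nick, 14 of 15 listed genes were tested. Irradiation called 0 of 14 in either genotype or on average, and genotype averaged over treatments called 0 of 14 (median -0.025, beside -0.030 over all genes). Tdp2, which frees DNA ends from topoisomerase 2, stood at -0.39 ± 0.12 (adjusted p = 0.0782). Parg, which degrades poly(ADP-ribose), stood at 0.17 ± 0.06 (adjusted p = 0.0878).

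In long-patch synthesis and ligation, where FEN1 acts, 19 of 19 listed genes were tested and 0 were called by irradiation. Between genotypes averaged over treatments, limma called 2.23% of all genes lower and 3.17% higher. Of the 19, 11 had a change below 0 and 2 were called lower. The called genes were Rfc1, the large subunit of the clamp loader (-0.37 ± 0.08, adjusted p = 0.0188), and Pold2, a subunit of DNA polymerase delta (-0.34 ± 0.08, adjusted p = 0.0273). The list median was -0.11. Of 8 mitochondrial and family X polymerases and nucleases, 6 had a change below 0 (list median -0.21). Limma called 1 of the 8 lower, Poll, a polymerase related to Polb (-0.24 ± 0.06, adjusted p = 0.038). With array brightness as a covariate Rfc1, Pold2 and Poll stood at -0.37 ± 0.15, -0.22 ± 0.15 and -0.27 ± 0.11 (adjusted p = 0.164, 0.361 and 0.18). The SE of all 3 was larger in that fit. Among 10 glycosylases tested, Neil1 and Ung, the uracil glycosylase (0.70 ± 0.17, adjusted p = 0.0273), were called higher between genotypes. With the covariate Ung stood at 0.07 (adjusted p = 0.889).

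Some cell type markers were also called between genotypes averaged over treatments, where 5.4% of all genes were. All 7 excitatory neuron markers had a change above 0 and 2 of them, Camk2a and Cux2, were called higher. The mean of the list lay between 1.61 and 2.44 in sham-exposed wild-type mice and between 2.37 and 2.58 in sham-exposed labelled knockouts. After irradiation it lay between 1.76 and 2.44 in wild type and between 2.36 and 2.70 in labelled knockouts. Among 7 microglia markers 4 had a change below 0 and 3 above, and 1 was called lower, P2ry12. The list mean lay between 1.64 and 1.88 in wild type and between 1.40 and 1.76 in labelled knockouts after sham exposure, and between 1.38 and 1.59 in irradiated wild-type mice and between 1.20 and 1.48 in irradiated labelled knockouts. Slc1a2, a glutamate transporter of astrocytes (0.46 ± 0.09, adjusted p = 0.0133), and Pecam1 of endothelium (0.42 ± 0.11, adjusted p = 0.0349) were called higher, 1 of 6 and 1 of 5 in their lists. These lists were mixed, with 2 of 6 astrocyte and 3 of 5 endothelial markers above 0. Neu4 of oligodendrocyte precursors was called lower (-0.31 ± 0.08, adjusted p = 0.0496), 1 of 6, and 4 of the 6 had a change below 0. Mature oligodendrocyte markers had 0 called, with 0 of 6 above 0 between genotypes in sham and 6 of 6 above 0 after irradiation. Their mean level lay between 1.84 and 2.86 in sham-exposed wild-type mice and between 1.31 and 2.91 in sham-exposed labelled knockouts. After irradiation it lay between 1.497 and 2.67 in wild type and between 2.01 and 2.88 in labelled knockouts. The astrocyte mean lay between 1.91 and 2.19 on all 16 arrays. The 7 neuron and 7 microglia markers were well above background on every array. The part of these cell types in the Xrcc1 difference was not tested.

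Across the 16 arrays the members fell into patterns that cut across the groups. Apex1 and Parp1 had the closest levels (Pearson r = 0.827, and 0.855 for deviations from the group means), and Fen1 and Xrcc1 the most opposed (r = -0.758 and -0.814). With array brightness also removed, r was 0.889 for Apex1 and Parp1 and -0.491 for Fen1 and Xrcc1. Apex1 and Apex2 had r = 0.657, Parp2 and Aptx 0.531. These are descriptions over 16 arrays that share slides and brightness, among 36 pairs.

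**Figure D5:**
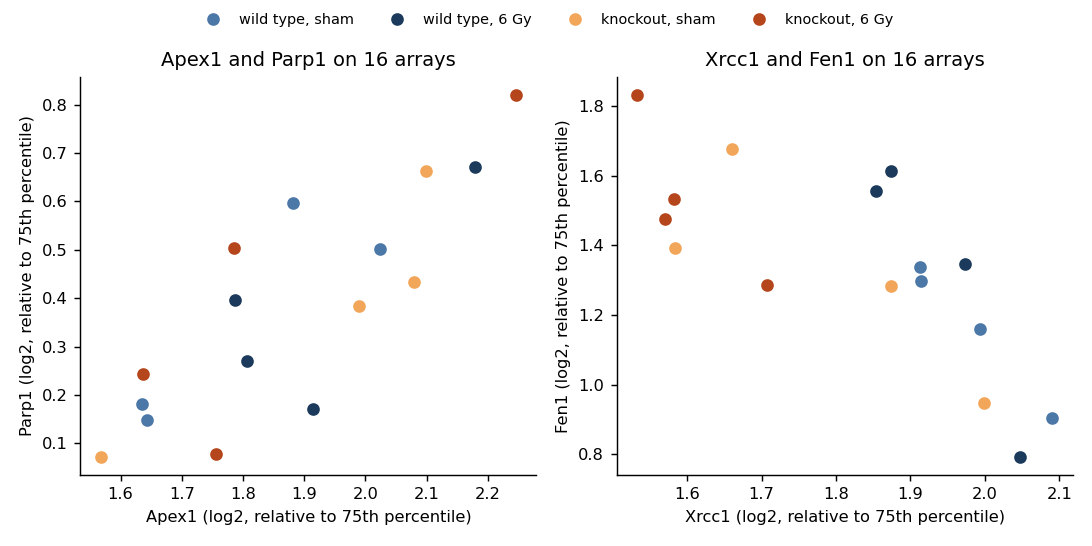
Levels of Apex1 against Parp1 (left) and of Xrcc1 against Fen1 (right) on 16 arrays, 1 point per mouse, coloured by group. The arrays of every group are spread along the first relation. In the second the irradiated labelled knockout arrays lie left of all wild-type arrays, at lower Xrcc1, while the sham-exposed ones overlap the wild type.

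Over 17379 genes with a value on every array, the levels most like those of Apex1 were Map2k1 (r = 0.958), Exosc4 (0.947) and Ramp1 (0.945). For Parp1 they were Actr1a (0.956), E2f5 (0.955) and Nubp2 (0.946). Xrcc1 was closest to Ints11 (0.954), Hectd3 and Slc19a1 (0.947 each), and Fen1 to Ube2e1 (0.965), Mrpl45 (0.957) and Mff (0.952). For Apex2 they were Ehbp1l1 (0.947), Wfs1 (0.939) and Chia1 (0.935), and for Aptx they were Parl (0.92), Ubtd1 (0.913) and Yju2 (0.911). Likeness was lowest for Polb, with Atxn1 (0.809), Syt13 (0.796) and Gopc (0.795). Lig3 had Nup93 (0.834), Rbfox1 (0.81) and Cyb561d1 (0.798), and Parp2 had Pcdhb11 (0.84), Cyp4a31 (0.809) and Usp47 (0.808). No other member was among the 3 nearest genes of any member.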

How the data were processed

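Per the labels, RNA of cerebral cortex was labelled with Cy3 from 200 ng total RNA. Per the file headers, the authors scanned 16 single-channel arrays at 3 micron resolution and extracted spot intensity with Agilent Feature Extraction 12.0.3.1, which subtracted background and detrended within each array. The flags in the deposited files mark spots well above background, saturated or outlying. The authors also deposited a score table of 42859 features. Its making was not given in the sources used here. Each column correlated with the log signal of its array at r of 0.9996 or more.

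The value used was log2 of the processed intensity after division by the 75th percentile of that array, computed here. Control and outlier spots were left out, and spots of a probe were averaged. Probes well above background on at least 4 of 16 arrays were kept (39588 of 56605), of which 25857 were named by RefSeq accession through a table of assembly GRCm38.p6. The array design names an older assembly, so coordinates are given only for RefSeq promoters. Genes were represented by their brightest kept probe and needed values on at least 12 arrays. The 17436 genes were fitted with limma 3.58.1 (R 4.3.3) with a mean per group, 12 residual degrees of freedom and 7 contrasts; p-values are two-sided. The fits were tested on simulated data. The number of arrays limits the precision. Groups are the labels' own.

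The members and the gene lists were chosen with earlier results of these data known. Named genes were drawn from all members, Neil1, called genes and those with the smallest p in each list, the 3 genes most correlated with a member, and called markers. The text gives the nearest genes by level alone, and of the markers those called between genotypes or among cycling cells. Some genes so selected are not reported here. Alternatives were normexp (offset 50), quantile and median scaling, the filter, the probe rule, the variance model, array weights, the slide column, the replicate block, the deposited scores, and the exclusion of each array in turn. The files used hold the median and no mean spot signal, so normexp started from that median. Replicate numbers follow slide columns: of 24 same-numbered pairs of arrays, 11 had deviations correlated above 0.1 (range -0.599 to 0.525), and the numbers were not taken to pair the mice.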

Additional observations from a re-analysis of the deposited data

Results flagged for a closer look

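Among 60 sets of 4 arrays (15 probes, Neil1 included, in 4 groups), 2 had an array far from the other 3 by Dixon's criterion, a rule by which chance marks about 1 set in 20. The Apex2 probe gave -2.59 in irradiated wild-type replicate 2, against -2.31 to -2.29 in the other 3, a gap of 0.919 of the range. The dimmer Parp2 probe gave -1.61 in labelled knockout sham replicate 2, against -1.72 to -1.71 in the other 3, a gap of 0.945 of the range.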

How the results depend on the processing

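In the 3 irradiation comparisons, the interaction and genotype in sham, the count of members called was 0 of 9 under every alternative run. In genotype after irradiation it was 1 (Xrcc1) with normexp (-0.33, adjusted p = 0.0387) and with the replicate block (-0.34, adjusted p = 0.0436). Averaged over treatments, the 1 call (Xrcc1) became 0 with quantile normalization, median scaling, the deposited scores, without the 2 dimmest arrays and with brightness as a covariate, where Xrcc1 stood at 0.001. It became 2 with the dimmest kept probe of each gene, where Lig3 stood at 0.39 (adjusted p = 0.0243). It was kept in 9 of 14 alternatives, among them the replicate block (adjusted p = 0.0167), and ran from 0 to 1 when single arrays were left out. The covariate, the dimmest probe and the exclusion of the 2 dimmest arrays were chosen after seeing the data, and the cause was not tested. Genes called over all 17436 in that comparison ranged from 7 with the covariate to 4210 with normexp (942 as reported; 1333 with the replicate block), and after irradiation from 0 to 3378 (205 as reported). In sham they ranged from 2 to 45 (9 as reported), and by irradiation from 9 to 21 in wild type (13), from 6 to 27 in labelled knockout (21) and from 26 to 84 on average (53). Single arrays left out gave 370 to 1551 between genotypes, 17 to 469 after irradiation, 5 to 14 in sham and 11 to 22 for irradiation in labelled knockout. The block changed no other call of a member. Of 1893 values of uncalled changes under the alternatives, 201 changed sign, 110 of them outside the exclusions of single arrays, among them Xrcc1 after irradiation (-0.34, and 0.007 with the covariate) and Fen1 between genotypes averaged over treatments (0.18, and -0.41 with the covariate). Median scaling moved the median of all genes by 0.10 for irradiation in wild type, by -0.20 for genotype after irradiation and by -0.17 in the interaction. Differences below the intervals given could not be seen with 4 arrays a group.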
